A study of Mus musculus with 8 samples.

Results

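Glycolysis and hypoxia response genes were followed in mouse ovarian follicular cells that received siRNA against the transcription factor FOXL2 and the hormone estradiol (E2). The set holds 39 genes of 24232 measured. It was chosen by gene identity, matching the mouse Entrez gene IDs of a fixed list to those of the array, and all 39 were found. Of these, 38 passed the filter on low signal, which kept 15637 genes of the whole series.

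Glycolysis splits glucose into pyruvate in the cytosol and yields ATP without oxygen. Glucose enters through SLC2A transporters and is trapped as glucose phosphate by hexokinases, and lactate dehydrogenases interconvert pyruvate and lactate. In the ovary the granulosa cells, which surround the oocyte, are known to be strongly glycolytic and to supply pyruvate and lactate to the oocyte. The hypoxia inducible factors (HIF) are transcription factors whose alpha subunits are marked for destruction by oxygen-dependent prolyl hydroxylases. When oxygen falls the alpha subunits accumulate and raise many glycolytic genes, which is why both kinds of gene stand in the same set.

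The cells came from preantral follicles of Swiss female mice aged 8 weeks, with 5 mice pooled for each replicate, and were described by the labels as mostly granulosa cells. They were dispersed, grown as monolayers for 9 days in total and put into medium with charcoal-treated serum, without phenol red or androstenedione, before treatment. Every culture received 12 pmol of an siRNA pool together with a pDsRed reporter plasmid. E2 or its ethanol vehicle was added 10 h before lysis. The sources differ on whether the 24 h given for the siRNA ended at lysis or before E2 was added. Crossing the siRNA (control or FOXL2) with the treatment (vehicle or 100 nM E2) gave 4 groups. Each group had 2 samples, and 50 ng of total RNA from each sample was hybridised to a single-colour Agilent array.

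Levels below are log2 values of the probe intensity after scaling every array to its own 75th percentile. A difference of 1 on this scale is a doubling, and levels were compared between arrays for the same gene and never between genes. A gene was called when its adjusted p in the limma fit, with Benjamini-Hochberg adjustment over all 15637 genes, was under 0.05. Replicates of a group correlated at 0.989 to 0.992 across genes, with a median difference of 0.155 to 0.197. The labels give a pool of mice for each replicate but do not say whether equal numbers in different groups share a pool. Arrays were therefore not paired, and the p-values rest on the spread between these samples within groups. A fit with a replicate block, given at the end, called more genes of the set and of the array as differing with FOXL2 siRNA. With vehicle it called 2928 genes of the array, beside 1026 without the block. Foxl2, the target of the siRNA, did not fall at gene level where the labels name FOXL2 siRNA: its change over both treatments was 0.18 (SE 0.10, adjusted p = 0.334). Of its probes, A_55_P2041668 fell by 0.97 (adjusted p = 0.0164) and A_55_P2037732 changed by 0.18 (adjusted p = 0.330). On A_55_P2041668 the arrays of FOXL2 siRNA read 5.47 to 6.03 and those of control siRNA 6.35 to 7.00. The gene level follows A_55_P2037732, which was far brighter at 13.75 to 14.45. Because the probes did not move alike, the direction of each FOXL2 siRNA difference is taken from the labels. Other genes did separate the siRNA groups, in both directions. Among granulosa markers, all 4 arrays of FOXL2 siRNA lay below all 4 of control siRNA for Fst (-2.02, adjusted p = 2.26e-04), Hsd17b1 (-1.47, adjusted p = 0.00222), Esr2 (-0.46, adjusted p = 0.0168) and Cyp19a1 (-0.75, not called at adjusted p = 0.0820). Cyp19a1 was dim, well above background on 1 of the 2 arrays in each FOXL2 siRNA group. For Wt1, Inhbb and Gata4 (1.02, 0.80 and 0.47) all 4 arrays lay above. Of all genes, 10.7% had all 4 arrays below and 10.1% all 4 above. Fst encodes follistatin, Esr2 an estrogen receptor, and Hsd17b1 and Cyp19a1 enzymes of estradiol synthesis.

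Promoter sequences are shown for the 5 genes that were called in any comparison and, for contrast, for Ldha, a textbook HIF target whose level differed little between groups. RefSeq promoters on GRCm38.p6, each 300 bases long with 250 before and 50 after the transcription start, were at hand for 34 of the 39 genes. Each is written 5′ to 3′ on the strand of its gene, and where a gene has several promoters the one with most hypoxia cores is given. Capitals mark the letters ACGTG and GCGTG, the cores of the hypoxia response element, on either strand. They are described by position in the order chr6:82774405-82774704 for Hk2, chr11:78322823-78323122 for Aldoc, chr7:126799129-126799428 for Aldoa, chr9:108991652-108991951 for Pfkfb4, chr2:11502041-11502340 for Pfkfb3 and chr7:46845554-46845853 for Ldha. The genes Hk2, Aldoa and Pfkfb3 lie on the minus strand and the others on the plus strand.
Hk2: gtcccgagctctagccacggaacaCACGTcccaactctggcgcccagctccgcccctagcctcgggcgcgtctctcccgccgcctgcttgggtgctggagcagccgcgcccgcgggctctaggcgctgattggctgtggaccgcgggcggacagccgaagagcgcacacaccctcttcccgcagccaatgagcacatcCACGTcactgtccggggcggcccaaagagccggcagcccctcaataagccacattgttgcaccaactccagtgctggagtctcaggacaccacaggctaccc
Aldoc: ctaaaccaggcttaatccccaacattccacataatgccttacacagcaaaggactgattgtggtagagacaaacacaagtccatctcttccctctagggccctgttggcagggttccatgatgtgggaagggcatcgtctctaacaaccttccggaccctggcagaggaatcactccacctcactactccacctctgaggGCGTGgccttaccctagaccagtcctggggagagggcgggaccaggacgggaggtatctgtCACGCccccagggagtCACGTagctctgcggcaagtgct
Aldoa: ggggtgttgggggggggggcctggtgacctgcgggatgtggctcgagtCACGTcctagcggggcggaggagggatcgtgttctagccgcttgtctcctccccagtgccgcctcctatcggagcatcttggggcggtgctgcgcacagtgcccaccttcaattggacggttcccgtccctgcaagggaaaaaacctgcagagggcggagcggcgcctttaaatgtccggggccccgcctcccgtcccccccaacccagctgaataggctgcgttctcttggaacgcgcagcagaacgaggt
Pfkfb4: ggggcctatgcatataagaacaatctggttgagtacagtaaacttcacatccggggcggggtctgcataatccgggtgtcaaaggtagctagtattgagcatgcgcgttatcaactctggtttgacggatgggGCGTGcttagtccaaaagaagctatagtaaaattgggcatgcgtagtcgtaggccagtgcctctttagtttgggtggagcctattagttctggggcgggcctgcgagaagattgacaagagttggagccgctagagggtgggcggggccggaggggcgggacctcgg
Pfkfb3: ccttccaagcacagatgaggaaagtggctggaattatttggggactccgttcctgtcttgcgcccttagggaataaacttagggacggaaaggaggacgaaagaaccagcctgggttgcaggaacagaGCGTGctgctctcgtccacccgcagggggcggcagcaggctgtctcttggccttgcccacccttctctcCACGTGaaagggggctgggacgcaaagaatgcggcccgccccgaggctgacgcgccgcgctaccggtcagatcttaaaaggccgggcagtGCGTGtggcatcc
Ldha: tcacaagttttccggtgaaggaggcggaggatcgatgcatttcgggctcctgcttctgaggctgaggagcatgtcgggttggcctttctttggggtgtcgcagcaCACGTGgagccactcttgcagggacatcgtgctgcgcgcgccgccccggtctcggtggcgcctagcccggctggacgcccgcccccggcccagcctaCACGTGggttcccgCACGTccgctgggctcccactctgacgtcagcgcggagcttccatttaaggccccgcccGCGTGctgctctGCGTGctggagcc

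The core letters occur in all 6 windows, 2 times for Hk2, 3 times for Aldoc, 1 time each for Aldoa and Pfkfb4, 4 times for Pfkfb3 and 7 times for Ldha. For Aldoc, Aldoa, Pfkfb3 and Ldha, which have several promoters, choosing the window with most cores favoured a match. Either core was in 75.5% of the promoters of the set and in 43.8% of all. Some of the matches counted in the 6 windows overlap, because CACGTG, the E-box, holds ACGTG on both strands. Over the set, 25 of 53 promoters held ACGTG, which is 47.2% against 19.6% of all 32851 promoters of this length. GCGTG was in 52.8% of the promoters of the set and 32.4% of all. The E-box CACGTG was in 13.2% and 7.15%. The forkhead core TAAACA, the kind of letters FOXL2 and its relatives bind, was in 3 of the 53 promoters (5.66%) and in 13.4% of all. The estrogen response element core AGGTCA was in 17% and 16.3%. The windows of the set were also richer in G and C, with a median of 59% against 52.7% for all promoters. A match of letters is a description and does not show that a factor binds there.

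The first comparison asked which of these genes differed between FOXL2 siRNA and control siRNA. Over both treatments 4 of the 38 genes were higher with FOXL2 siRNA and 0 were lower. They were Hk2, Aldoc, Pfkfb4 and Aldoa, with rises of 1.79-fold, 1.90-fold, 1.28-fold and 1.22-fold. Over all genes, 6.4% were called higher and 6.18% lower in this comparison, so the share of the set called higher, 10.5%, rests on 4 genes. The other 34 were not called. The median difference of the 38 genes was -0.01, against -0.0026 for all genes tested, with 17 of the 38 above 0 and 21 below. For 26 of the 38 genes the 95% interval of the difference lay between -0.5 and 0.5.

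**Figure D1:**
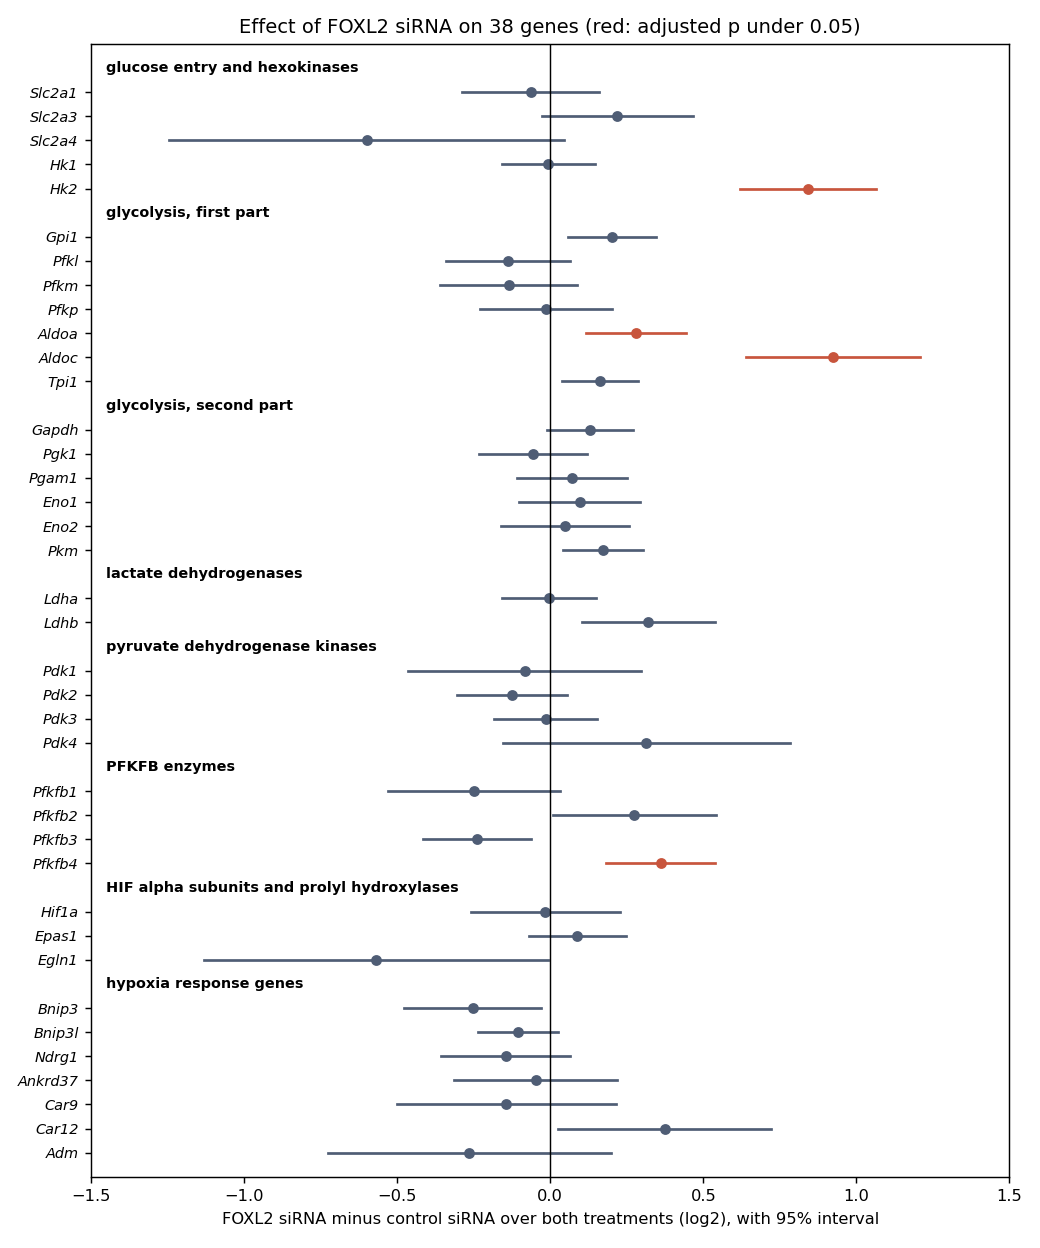
Difference between FOXL2 siRNA and control siRNA over both treatments for the 38 genes tested, in log2 units on the x axis, ordered by role on the y axis, with points for the estimate and lines for the 95% interval of the limma fit. The 4 genes called, in red, are Hk2, Aldoc, Pfkfb4 and Aldoa, at 0.84, 0.92, 0.36 and 0.28, and most other intervals cross 0.

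Among the genes of glucose entry, Hk2 stood apart. It encodes the hexokinase isoform known to be induced by insulin and by hypoxia. Its levels were 10.29 and 9.96 under vehicle and 9.99 and 9.93 under E2 in control siRNA cells, and 10.95 and 10.83 under vehicle and 10.76 and 11.00 under E2 in FOXL2 siRNA cells. All 4 arrays of FOXL2 siRNA were above all 4 of control siRNA, by at least 0.47 between the nearest arrays. The difference was 0.76 with vehicle (SE 0.14, adjusted p = 0.0173), 0.92 with E2 (SE 0.14, adjusted p = 0.0114) and 0.84 over both (SE 0.10, adjusted p = 0.00153). Over all genes, 3.63% were called higher with vehicle and 2.25% with E2. The call over both treatments was kept when any of the 8 arrays was left out. The vehicle call was lost without either FOXL2 siRNA vehicle array or the control siRNA vehicle array of replicate 2 (adjusted p up to 0.0968). The E2 call was lost without either control siRNA E2 array or the FOXL2 siRNA E2 array of replicate 2 (adjusted p up to 0.0832).

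Hk1, the hexokinase that most tissues use, had levels from 14.56 to 14.77 over the 8 arrays and a difference of -0.01 over both treatments (SE 0.07, adjusted p = 0.967). Its 3 probes did not behave alike. The probes A_55_P2027999 and A_55_P2118843 were higher with FOXL2 siRNA by 0.26 and 0.37 (adjusted p = 0.0382 and 0.0398 over the probes tested), while A_55_P2037398, the probe with the highest signal, gave -0.04 (adjusted p = 0.805). In that fit on single probes 5.52% of 21717 probes were called higher and 5.36% lower. Of the 62 probes of the set tested, 6 were called higher, namely these 2 of Hk1 and 1 each of Hk2, Aldoa, Aldoc and Pfkfb4, and 0 were called lower. Which transcripts of Hk1 the probes read was not analysed here.

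The glucose transporters were not called over both treatments or with either treatment. Slc2a1, the transporter of basal glucose uptake, lay between 9.79 and 10.16, with a difference of -0.06 (adjusted p = 0.733). Slc2a4, the transporter that insulin brings to the cell surface in muscle and fat, was dim. It lay between 3.44 and 4.78 and was well above background on 7 of the 8 arrays, and its difference of -0.60 had a 95% interval from -1.25 to 0.05. Slc2a3, a high-affinity glucose transporter, is described with the response to E2.

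In the first part of glycolysis, from glucose phosphate to triose phosphate, 2 of 7 genes were called over both treatments and both encode aldolases, which split fructose bisphosphate. Aldoc, the aldolase best known from brain, had levels of 10.09 and 9.67 with control siRNA and vehicle and of 10.03 and 9.70 with control siRNA and E2. With FOXL2 siRNA its levels were 10.92 and 10.66 with vehicle and 10.87 and 10.74 with E2. The 2 groups of 4 arrays did not overlap, and within control siRNA replicate 1 was the higher array with either treatment. The difference was 0.91 with vehicle (SE 0.17, adjusted p = 0.0224), 0.94 with E2 (SE 0.17, adjusted p = 0.0264) and 0.92 over both (SE 0.12, adjusted p = 0.00293). As for Hk2, the call over both treatments was kept without any of the 8 arrays. The call with E2 was lost without any of the 4 arrays it compares (adjusted p up to 0.155) and at an adjusted p of 0.0503 with no filter on low signal. With vehicle it was lost without either array of FOXL2 siRNA or without replicate 2 of control siRNA (adjusted p up to 0.121).

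Aldoa, the aldolase of muscle and most other tissues, changed far less. Its levels were 17.07 and 17.02 under vehicle and 16.88 and 17.11 under E2 in control siRNA cells, and 17.42 and 17.32 under vehicle and 17.21 and 17.25 under E2 in FOXL2 siRNA cells. The groups did not overlap, but the nearest arrays differed by 0.10. The difference over both treatments was 0.28 (SE 0.07, adjusted p = 0.0390). That call was lost in 6 of the 8 fits that left out 1 array, all but those without replicate 1 of control siRNA with vehicle or replicate 2 of control siRNA with E2, with adjusted p up to 0.133.

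**Figure D2:**
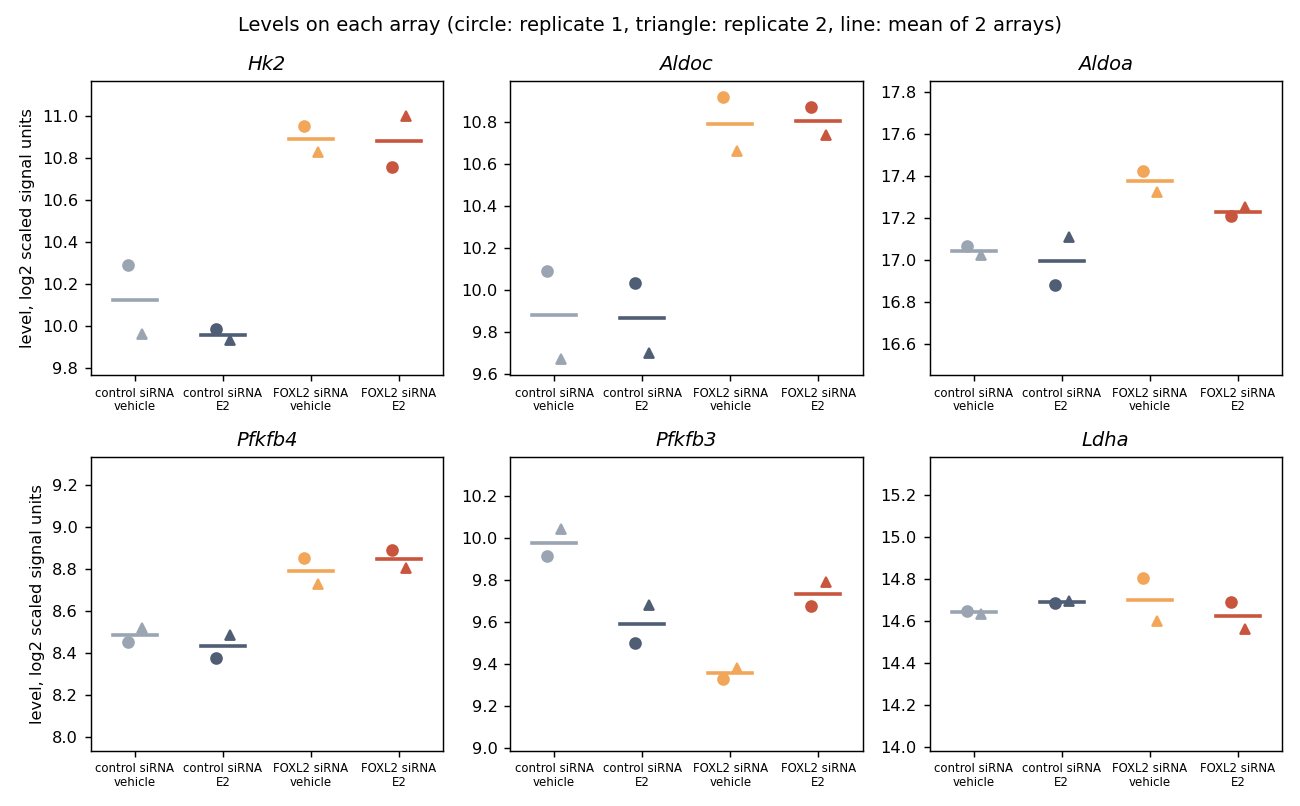
Levels in log2 scaled signal units on the y axis, by group on the x axis, for the 5 genes called in any comparison and for Ldha, with circles and triangles for replicates 1 and 2 and lines for the mean of 2 arrays; each panel has its own y range. Hk2 and Aldoc show the 4 arrays of FOXL2 siRNA well above the 4 of control siRNA, Pfkfb3 is lowest with FOXL2 siRNA and vehicle, and Ldha stays between 14.56 and 14.80.

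The phosphofructokinase subunits Pfkl, Pfkm and Pfkp, which form the enzyme of the committed step, had differences of -0.14, -0.14 and -0.01 over both treatments. None was called, and their lowest adjusted p was 0.366. Gpi1, which isomerises glucose phosphate to fructose phosphate, lay between 15.09 and 15.27 with control siRNA and between 15.33 and 15.42 with FOXL2 siRNA. Its difference of 0.20 (SE 0.06) did not pass the threshold (adjusted p = 0.0762), although its 3 probes differed by 0.18 to 0.22 each. Tpi1, the triose phosphate isomerase, differed by 0.16 (SE 0.05, adjusted p = 0.0922).

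In the second part, from triose phosphate to pyruvate, 0 of 6 genes were called with vehicle, with E2 or over both treatments. The differences over both treatments ran from -0.06 for Pgk1, a kinase that makes ATP, to 0.17 for Pkm, the pyruvate kinase of most tissues (SE 0.06, adjusted p = 0.0940). Gapdh, often used as a reference gene, lay between 15.91 and 16.06 with control siRNA and between 16.08 and 16.18 with FOXL2 siRNA. Its difference was 0.13 (95% interval -0.01 to 0.27, adjusted p = 0.219), and its 7 probes gave 0.08 to 0.17. The enolases Eno1 and Eno2 and the mutase Pgam1 differed by 0.10, 0.05 and 0.07. Several of these genes have processed copies elsewhere in the mouse genome, and the array signal cannot separate transcripts that share a probe sequence.

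The lactate dehydrogenase subunits differed from each other in size of change but neither was called. Ldha, which favours the making of lactate, had levels from 14.56 to 14.80 and a difference of -0.0037 over both treatments (95% interval -0.16 to 0.15). Ldhb, which favours pyruvate, was 14.38 and 14.42 under vehicle and 14.29 and 14.60 under E2 in control siRNA cells, and 14.62 and 14.83 under vehicle and 14.65 and 14.87 under E2 in FOXL2 siRNA cells. Its groups of 4 arrays were apart by 0.02 at the nearest arrays. The difference of 0.32 (SE 0.09) had an adjusted p of 0.0654. Of the 8 fits that left out 1 array, the one omitting the second array of control siRNA and E2 called it (0.40, adjusted p = 0.0465).

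Counting arrays rather than calls, 10 of the 38 genes had all 4 arrays of FOXL2 siRNA above all 4 of control siRNA, and 0 had all 4 below. The corresponding shares of all genes were 10.1% and 10.7%. The 10 were Hk2, Gpi1, Aldoa, Aldoc, Tpi1, Gapdh, Pkm, Ldhb, Pfkfb2 and Pfkfb4, of which 8 catalyse steps between glucose and lactate. The count depended on the scaling. It was 7 above and 1 below with normexp background correction, 6 above and 2 below with quantile normalization, and 9 above and 2 below with the array median subtracted. Hk2, Aldoa, Aldoc, Pfkfb2 and Pfkfb4 were among those above with each scaling, and Bnip3l was below with each alternative scaling. On the array 1457 genes had a mean level of at least 13, and their median difference was 0.03. Of these, 14.8% had all 4 arrays above and 7.28% all 4 below. Among them are 11 of the 38 genes, of which 6 had all 4 arrays above in the main scaling. The 6 were Gpi1, Aldoa, Tpi1, Gapdh, Pkm and Ldhb.

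The pyruvate dehydrogenase kinases, which inhibit the pyruvate dehydrogenase complex, did not differ detectably. Pdk1, Pdk2 and Pdk3 had differences over both treatments of -0.08, -0.13 and -0.02. Pdk4, the isoform known to rise in fasting, varied most between arrays, from 8.88 to 10.07. Its difference was 0.31 (SE 0.20, adjusted p = 0.380), with 0.09 with vehicle and 0.54 with E2 (adjusted p = 0.913 and 0.409).

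The PFKFB enzymes make and remove a fructose bisphosphate that activates phosphofructokinase and is not the one that aldolases split. Of the 4 genes 2 were called, in opposite directions and in different comparisons. Pfkfb4 was higher with FOXL2 siRNA over both treatments. Its levels were 8.45 and 8.52 under vehicle and 8.38 and 8.49 under E2 in control siRNA cells, and 8.86 and 8.73 under vehicle and 8.89 and 8.81 under E2 in FOXL2 siRNA cells. The groups were apart by 0.21 at the nearest arrays, and the difference over both treatments was 0.36 (SE 0.08, adjusted p = 0.0207). With vehicle and with E2 taken alone, 0.30 and 0.42, it was not called (adjusted p = 0.167 and 0.0846). The call over both was lost in 6 of the 8 fits that left out 1 array, all but those without replicate 2 of control siRNA with vehicle or of FOXL2 siRNA with vehicle, with adjusted p up to 0.0816.

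Pfkfb3, the isoform with the strongest kinase activity, was lower with FOXL2 siRNA in the vehicle groups. It was the 1 gene of the set called lower there, where 2.94% of all genes were called lower. Its levels were 9.91 and 10.04 with control siRNA and vehicle and 9.33 and 9.38 with FOXL2 siRNA and vehicle, which gives a difference of -0.62 (SE 0.11, adjusted p = 0.0157). Leaving out either FOXL2 siRNA vehicle array or the control siRNA vehicle array of replicate 2 ended the call (adjusted p up to 0.0952). With E2 its levels were 9.50 and 9.68 with control siRNA and 9.68 and 9.79 with FOXL2 siRNA. The difference there was 0.14 (SE 0.11, adjusted p = 0.586). In that comparison 2.14% of all genes were called lower, and 0 of the set. The liver and heart isoforms Pfkfb1 and Pfkfb2 differed by -0.25 and 0.27 over both treatments (adjusted p = 0.239 and 0.174).

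The genes of oxygen sensing showed no called difference. Hif1a and Epas1 encode the alpha subunits. Hif1a lay between 8.99 and 9.37 with a difference of -0.02 over both treatments (95% interval -0.26 to 0.23). Epas1 lay between 9.62 and 10.00 with a difference of 0.09 (95% interval -0.07 to 0.25). Its 3 probes disagreed, since A_51_P250058 gave -0.46 with vehicle and 0.72 with E2 (adjusted p = 0.410 and 0.221) while A_55_P2077448, which carries most of the signal, gave 0.08 and 0.09.

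Egln1 and Egln3 encode prolyl hydroxylases. Egln1 was 6.21 and 7.35 under vehicle and 7.08 and 7.00 under E2 in control siRNA cells, and 6.18 and 6.29 under vehicle and 6.24 and 6.65 under E2 in FOXL2 siRNA cells. Replicate 1 of control siRNA with vehicle sat with the FOXL2 siRNA arrays and the other 3 control arrays were above them. The difference of -0.57 (SE 0.24) was not called (adjusted p = 0.180). Without that array Egln1 was called lower, at -1.12 (SE 0.22, adjusted p = 0.0455) with vehicle and at -0.86 (SE 0.14, adjusted p = 0.0130) over both treatments. Egln3 was the gene that failed the filter. Its values were 1.65 and 1.24 under vehicle and 1.67 and 4.05 under E2 in control siRNA cells, and 1.53 and 2.19 under vehicle and 1.45 and 1.74 under E2 in FOXL2 siRNA cells. It was well above background on 1 array, replicate 2 of control siRNA with E2, and no fold is given for it.

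The HIF targets outside glycolysis were not called either. Of these 7 genes 6 had a difference below 0 over both treatments, and the median of the 7 was -0.14. Of all 15637 genes tested, 7908 were below 0. Bnip3 and Bnip3l, which encode receptors for the removal of mitochondria, had differences of -0.25 ± 0.10 and -0.11 ± 0.06 (SE of the fit), with adjusted p of 0.137 and 0.292. Each of the 3 probes of Bnip3 and the 4 probes of Bnip3l gave a value below 0. Ndrg1, Ankrd37 and Car9, whose product is a carbonic anhydrase at the cell surface, differed by -0.15, -0.05 and -0.14. Adm, the precursor of the vasodilator adrenomedullin, differed by -0.26 with an interval from -0.73 to 0.20. Car12, another carbonic anhydrase of the cell surface, was the exception at 0.37 (adjusted p = 0.156). Its difference was -0.18 with vehicle and 0.93 with E2 (SE 0.21, adjusted p = 0.0537 with E2). With E2 it was called after quantile normalization, with the array median subtracted and in the fit with only the groups compared. Leaving out 1 array of FOXL2 siRNA with vehicle changed these calls: without replicate 1 Bnip3 was called at -0.35 (adjusted p = 0.0444), and without replicate 2 Car12 was called at 0.55 (adjusted p = 0.0192).

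The effects with vehicle and with E2 come from different arrays, so they can be set beside each other. Of the 38 genes 29 (76.3%) had the same sign in both, against 72.7% of all genes tested. Hk2 and Aldoc were the 2 genes called with each treatment. With vehicle the median of the 38 differences was 0.06, and leaving out replicate 1 of FOXL2 siRNA with vehicle turned it to -0.03. With E2 the median was -0.02.

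**Figure D3:**
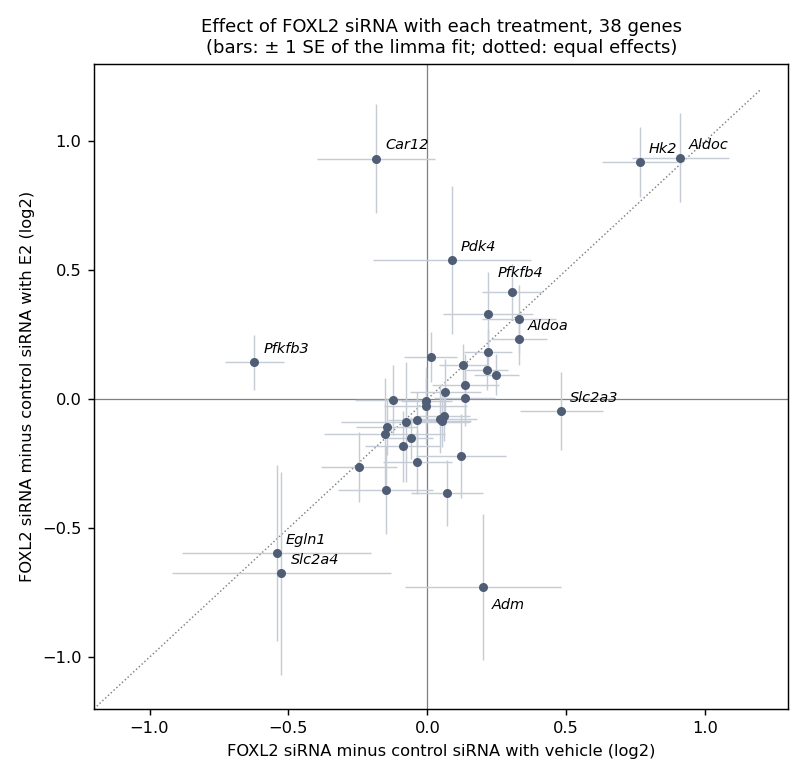
Difference between FOXL2 siRNA and control siRNA with vehicle on the x axis and with E2 on the y axis, both in log2 units, for the 38 genes, with bars of 1 SE and a dotted line of equal effects. Hk2 and Aldoc lie high on both axes, while Pfkfb3, at -0.62 and 0.14, and Car12, at -0.18 and 0.93, lie far from the line.

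The second comparison asked what E2 did to these genes with each siRNA. In the limma fit without a replicate block, 0 of the 38 genes were called for E2 against vehicle with either siRNA. For the difference between these effects the count was also 0, whereas the fit with the block, given at the end, called Pfkfb3, Car12 and Adm. Few genes of the array were called without the block. Their shares were 0.0192% with control siRNA, 0.0128% with FOXL2 siRNA and 0.243% for the difference. At an unadjusted p under 0.05 the counts were 3 genes with control siRNA (Pfkfb3, Epas1 and Car12), 1 with FOXL2 siRNA (Pfkfb3) and 5 for the difference (Slc2a3, Pfkfb3, Ndrg1, Car12 and Adm). The shares of all genes at that level were 4.58%, 3.06% and 4.91%. The E2 effects ran from -0.64 to 0.37 with control siRNA, with a median of 0.01, and from -0.56 to 0.48 with FOXL2 siRNA, with a median of -0.05. The genes called for FOXL2 siRNA over both treatments responded little to E2. The E2 effect was -0.17 and -0.01 for Hk2 and -0.01 and 0.01 for Aldoc, with control siRNA and with FOXL2 siRNA.

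For 4 genes the 2 E2 arrays lay apart from the 2 vehicle arrays with each siRNA, and in opposite directions. Such a pattern was seen in 5.77% of all genes. Pfkfb3 went from 9.91 and 10.04 with vehicle to 9.50 and 9.68 with E2 in cells with control siRNA, and from 9.33 and 9.38 to 9.68 and 9.79 in cells with FOXL2 siRNA. Its difference of E2 effects was 0.77 (SE 0.15, adjusted p = 0.206). Car12 read 11.60 and 11.27 with vehicle and 10.79 and 10.80 with E2 in cells with control siRNA, and 11.60 and 10.90 with vehicle and 11.75 and 11.70 with E2 in cells with FOXL2 siRNA. Its difference of E2 effects was 1.12 (SE 0.30, adjusted p = 0.470), and with FOXL2 siRNA and vehicle replicate 2 lay below replicate 1 by more than the E2 effect of 0.48.

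Slc2a3 and Ndrg1 had the opposite order. Slc2a3 read 7.39 and 7.56 with vehicle and 7.67 and 7.92 with E2 in cells with control siRNA, and 7.85 and 8.06 with vehicle and 7.67 and 7.84 with E2 in cells with FOXL2 siRNA. Ndrg1, a gene known to rise in hypoxia, read 7.73 and 7.77, then 8.06 and 7.91 in cells with control siRNA. With FOXL2 siRNA it read 7.77 and 7.87 with vehicle and 7.52 and 7.72 with E2. The differences of E2 effects were -0.53 (SE 0.21, adjusted p = 0.961) for Slc2a3 and -0.43 (SE 0.18, adjusted p = 0.990) for Ndrg1.

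**Figure D4:**
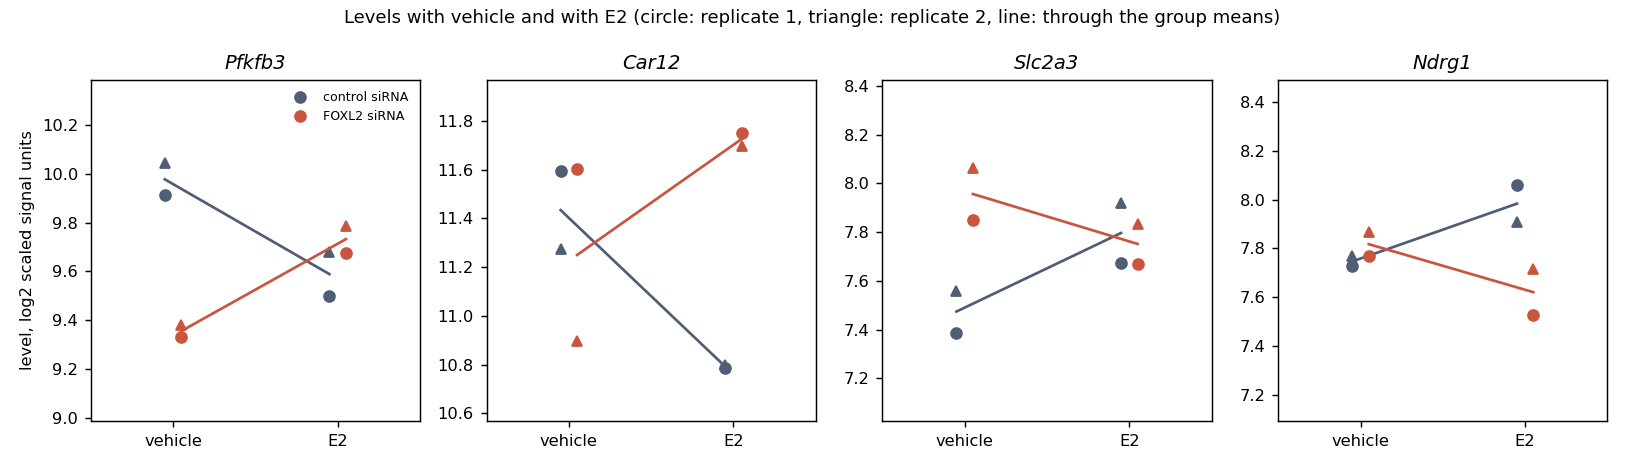
Levels in log2 scaled signal units on the y axis with vehicle and with E2 on the x axis for Pfkfb3, Car12, Slc2a3 and Ndrg1, in control siRNA (blue) and FOXL2 siRNA (red) cells, with circles and triangles for replicates 1 and 2 and lines through the group means; each panel has its own y range. The lines cross in each panel. None of the 4 differences of E2 effects, 0.77, 1.12, -0.53 and -0.43, was called in the fit without a replicate block.

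Other genes of glucose use and of the hypoxia response were counted in 11 lists with 146 genes, of which 127 were tested. Over both treatments 9 were higher and 12 lower with FOXL2 siRNA, with a median of 0.0020. These were 7.09% and 9.45% of the genes tested, beside 6.4% and 6.18% of all genes. With vehicle the counts were 3 and 4 (2.36% and 3.15%, beside 3.63% and 2.94% of all genes). With E2 they were 4 and 5 (3.15% and 3.94%, beside 2.25% and 2.14%). Of 7 other glycolytic isoenzymes tested 2 were called, both higher. Eno3, the muscle enolase, rose by 0.53 (adjusted p = 0.00232) and Pgam2, the muscle mutase, by 1.45 (adjusted p = 0.0439). Pgam2 was dim, at 3.82 to 6.51, and its groups of 4 arrays overlapped.

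Of 7 other glucose transporters tested, Slc2a13, a carrier of myoinositol, was higher by 1.14 (adjusted p = 0.00705), and Slc2a12 and Slc2a10 were lower, at -0.62 and -0.38 (adjusted p = 0.0132 and 0.0353). Among 9 genes of pyruvate and lactate transport, Slc16a3, the lactate exporter, was the 1 called. Its levels were 8.05 and 7.29 under vehicle and 7.99 and 7.46 under E2 in control siRNA cells, and 9.25 and 8.51 under vehicle and 9.14 and 8.48 under E2 in FOXL2 siRNA cells. Replicate 1 was the higher array in each group, and the difference was 1.15 (SE 0.26, adjusted p = 0.0255).

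In glycogen metabolism 12 genes were tested. Gbe1, the branching enzyme, rose from 9.85 to 10.16 over the 4 control arrays to 10.83 to 11.13 over the 4 of FOXL2 siRNA, a difference of 1.08 (SE 0.09, adjusted p = 4.24e-04), and was called with each treatment. Pygl, the liver phosphorylase, was lower at -0.44 (adjusted p = 0.0251). G6pdx, the entry enzyme of the pentose phosphate pathway, was the 1 of 8 genes there called over both treatments, higher by 0.55 (adjusted p = 0.00832). Pck2, of gluconeogenesis, was lower at -0.77 (adjusted p = 0.0108). Of the pyruvate dehydrogenase complex (8 genes), the tricarboxylic acid cycle (20) and the other HIF pathway components (13), 0 were called with vehicle, with E2 or over both treatments.

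Among 23 other hypoxia response genes tested, 3 were higher and 3 lower over both treatments, and the 5 with the largest differences follow. Fos, an early response factor, was lower at -1.41 (adjusted p = 9.59e-04). Stc2, a secreted glycoprotein, and Vegfa, the growth factor of blood vessels, were higher by 0.92 and 0.61 (adjusted p = 0.00103 and 0.0367). Bhlhe40 was higher by 0.49 and Cited2, an inhibitor of HIF, lower at -0.49 (adjusted p = 0.0270 and 0.0454). Of 16 genes of glucose sensing and regulation tested, 0 were higher and 5 lower over both treatments, namely Irs1, Foxo1, Arrdc4, Insr and Irs2. Those 5 are 31.2% of the list, beside 6.18% of all genes called lower and 6.4% called higher. The list was chosen with earlier results of these data known. Irs1 and Irs2 carry the insulin signal from the receptor Insr. Their differences were -0.87, -0.50 and -0.50 (adjusted p = 0.00138, 0.0137 and 0.0179), with -0.83 for the forkhead factor Foxo1 (adjusted p = 0.0120) and -0.64 for Arrdc4 (adjusted p = 0.00406).

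Markers of the cell types moved with the siRNA groups and are given for that reason. Of 13 granulosa markers 10 were well above background on all 8 arrays, while Fshr and Amh were so on none. Their summed linear signal was 109900 to 124600 units over the 4 control siRNA arrays and 132900 to 140300 over the 4 of FOXL2 siRNA. Of the 5 theca markers on the array 4 were well above background on all arrays and Lhcgr on none, and the sums were 124300 to 148100 and 99090 to 119900. Neither pair of ranges overlapped, but the single genes of each list did not move one way. Of 11 granulosa markers tested over both treatments 3 were called higher, namely Wt1, Inhbb and Gata4 (1.02, 0.80 and 0.47), and 3 lower, namely Fst, Hsd17b1 and Esr2, with a median of -0.04. Of 4 theca markers tested Hsd3b1 was called lower (-0.69, adjusted p = 0.00746) and Cyp11a1 higher (0.89, adjusted p = 1.95e-04), while Cyp17a1 and Star differed by 0.62 and 0.47 (adjusted p = 0.110 and 0.105), with a median of 0.54. Without Hsd3b1 the theca sums were 20820 to 23820 with control siRNA and 38780 to 41260 with FOXL2 siRNA, so their order turned. Of 8 oocyte markers 7 were well above background on no array. The sums for macrophages (545.6 to 597.4 and 580.5 to 709.5), endothelium (1134 to 1819 and 1595 to 1957), and fibroblasts and smooth muscle (13200 to 18500 and 16560 to 17390) overlapped. The part of these markers in the differences of Hk2, Aldoc and the other genes was not tested. In bulk RNA, fewer cells of a type and less RNA per cell cannot be told apart.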

How the data were processed

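RNA from 8 cultures was hybridised to single-colour Agilent arrays, all on 1 slide scanned once, so no slide or scan block could be fitted. The deposited scanner files hold spot intensity values from Agilent Feature Extraction, in which background had been subtracted and spatial trends removed by the authors' software. The table of processed values deposited by the authors is on a log2 scale, per array minus the 75th percentile. At 98.6 to 98.8% of its rows with a single probe it equalled the log2 scaled intensity within 0.001. It served as an alternative.

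Here 3671 control spots of 62976 and 42 non-uniform probes were dropped, which left 55639 probes. Spots of a probe were averaged, arrays were scaled to their 75th percentile (275 to 367 units) and multiplied by 319.9 units, and probes sharing an Entrez ID were averaged on the linear scale. The share of probes well above background was 51.3 to 55.6%, and 0 were saturated. Of 24232 genes, 22349 were named by the RefSeq table. Genes with a median signal of at least 10 were kept. The fit used limma 3.58.1 in R 4.3.3, with 4 group means over all 8 arrays, an intensity trend, 4 residual degrees of freedom, two-sided tests and Benjamini-Hochberg adjustment, in 6 comparisons. The effect over both treatments is the mean of the effects with vehicle and with E2. Before use, the fit was tested on data drawn with known differences.

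Alternatives were other background corrections, scalings, filters and probe summaries, a fit without the trend or with only the groups compared, a replicate block, leaving out each array, and the study's rule. That rule asks for a difference of at least 1 that exceeds 2 times the sum of both SDs. The genes of the set and the gene lists were chosen with earlier results of these data known. All genes of the set could be named, and up to 5 genes for each other list were named, taking first those called over both treatments with the largest difference. The arrays were designed on another genome build than the RefSeq tables, so gene coordinates are given for promoters alone. Tables and plots were made with Python 3.11.15, pandas 2.3.3, numpy 2.4.6 and matplotlib 3.10.9. Arrays carry no read depth, and 2 arrays a group limit the precision.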

Additional observations from a re-analysis of the deposited data

Results flagged for a closer look

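In 4 genes both E2 arrays lay on one side of both vehicle arrays with control siRNA and on the other side with FOXL2 siRNA. The difference of the E2 effects was 0.77 for Pfkfb3 (adjusted p = 0.206), 1.12 for Car12 (adjusted p = 0.470), -0.53 for Slc2a3 (adjusted p = 0.961) and -0.43 for Ndrg1 (adjusted p = 0.990). The limma test of that difference without a replicate block called none of them, and the fit with the block called Pfkfb3 and Car12. The same pattern of arrays was seen in 5.77% of all genes.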

How the results depend on the processing

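The alternatives with normexp correction, quantile normalization, the array median subtracted, the filter on probes well above background, the brightest probe and the authors' table kept each count of genes called within 1.5 times. With vehicle, where 3 genes of the set were called, the count was 1 without the intensity trend and 0 under the study's rule, and 0 to 4 when arrays were left out (the fourth, Egln1, without replicate 1 of control siRNA with vehicle). With E2, where 2 were called, it was 1 with no filter, 1 without the trend and 0 under the study's rule, and 0 to 3 when arrays were left out (the third, Car12, without either array of FOXL2 siRNA with vehicle). Over both treatments, where 4 were called, it was 2 to 4 when arrays were left out, with Hk2 and Aldoc called each time. Leaving out an array leaves its group with 1 array, which is then assumed to vary like the others. Among single genes, Hk2 with vehicle (adjusted p = 0.0501) and Aldoc with either treatment were not called without the trend, Aldoc with vehicle was not called in the fit with only the groups compared (adjusted p = 0.0528), and Aldoa over both treatments was not called with no filter (adjusted p = 0.135) or without the trend (adjusted p = 0.0827). The calls of Hk2 and Aldoc over both treatments were kept in each fit that was run, with adjusted p up to 0.00993 and 0.0137. The cause of these shifts was not tested.

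Replicate numbers are shared between groups, and deviations from the group means of arrays with the same number correlated at 0.327 to 0.445 in the 6 pairs of groups. With only 2 numbers, and labels that do not say what a number shares, they were not taken as pairs. With the replicate block 7 of the 38 genes were called with vehicle, 7 with E2 and 13 over both treatments. For the difference of E2 effects 3 were called. Calls rose over the whole array as well. Of the 15637 genes tested, the block called 2928 with vehicle, 2329 with E2 and 4326 over both treatments. It called 332 for the difference of E2 effects. Of the 13 genes of the set, Hk2, Gpi1, Aldoa, Aldoc, Tpi1, Pkm, Ldhb, Pdk4, Pfkfb4 and Car12 were higher over both treatments. Pfkfb3, Egln1 and Bnip3 were lower. The 3 for the difference were Pfkfb3, Car12 and Adm (adjusted p = 0.00644, 0.0117 and 0.0221).

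The scanner files hold no mean spot signal, so normexp was run on the median signal. The median of all genes moved by less than 0.1 under each scaling. The difference over both treatments changed sign for Pfkp with normexp and for Pdk3 with quantile normalization, both under 0.02 in size.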
